A study of Mus musculus with 48 samples.

Results

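Whole lung RNA of bleomycin-injured mice given 3G9, an antibody against the integrin αvβ6, was compared with that of bleomycin-injured mice given Axum8, the control treatment of the same batch. The 8 libraries were taken by their labels, as whole lung libraries of batch S151 with bleomycin exposure, from 48 libraries of 24 mice in all. There were 4 mice per group, each group with 3 males and 1 female: 3G9 mice 218, 219, 226R and 228, and Axum8 mice 204, 206, 208R and 225. Whole lung libraries of 3 saline mice given Axum8 in the same batch (207, 221 and 230) give the level without injury. All samples are labelled as lung epithelial RiboTag, a mouse design in which a tagged ribosomal protein lets RNA be precipitated from a chosen cell type; the labels do not say what drives the tag, nor do they give strain, age, or the dose and timing of bleomycin and antibody. The labels give the same anti-HA precipitation for whole lung as for epithelial libraries, so how the whole lung RNA was obtained cannot be told from them. Libraries were made with the Lexogen QuantSeq Forward kit, which reads a tag near the end of each polyadenylated transcript, so that counts do not grow with transcript length.

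Integrin αvβ6 is found on epithelial cells and is raised when lung epithelium is injured. It binds the latent complex that holds TGFβ inactive and releases the active cytokine next to the epithelium. TGFβ in turn drives fibroblasts to make and crosslink collagen and elastic fibres, which is why antibodies to this integrin have been studied in the bleomycin model of lung fibrosis. In whole lung, RNA of many cell types is mixed, and fewer cells of a type and less RNA per cell cannot be told apart.

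The deposited table names genes by Ensembl ID alone, and the reference table used here carries no Ensembl IDs (0 of 42548 matched). Genes could therefore not be given symbols, roles or sequences, and the pathway and cell type lists drawn up by symbol could not be applied. Genes are described through their levels, their response to bleomycin in other mice and their distribution between epithelial and whole lung libraries, and 2 IDs are printed in each direction, those with the smallest p.

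Total counts ran from 25945089 to 34908999 over the 8 libraries. Their label as whole lung was checked with 1866 genes that the saline mice of another batch, S135, had at least 8-fold lower in their epithelial libraries than in whole lung. These genes held 9.69% to 12.9% of counts in the 8 whole lung libraries and 0.584% to 1.16% in the epithelial libraries of the same mice. In the table, the column matched to whole lung of 3G9 mouse 218 bears a suffix, FT, that no label explains. This library had the highest share, 12.9%. It also stood apart along the first principal component of the 11 whole lung libraries of the batch, which held 39.9% of the variance over 16667 genes. Scores there were 83.9 for mouse 218, 40.4 for 219, 15.5 for 226R and -19.0 for 228 among 3G9 mice. Axum8 bleomycin mice lay at 44.2 (225), 1.54 (204), 1.43 (208R) and -16.7 (206), and saline mice between -63.8 and -36.6. The 3G9 mice thus spread further than the Axum8 bleomycin mice did, mostly through mouse 218, which lay furthest from saline. Towards saline, 3G9 mouse 228 was only just beyond Axum8 mouse 206.

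With 3G9, 5 genes were higher and 3 lower than with Axum8 among 16667 tested in edgeR's quasi-likelihood test (adjusted p under 0.05), which is 0.0480% of the genes, 0.0300% higher and 0.0180% lower. The changes of the 8 genes ranged in size from 0.71 to 2.62 on the log2 scale. In each of the 8 the groups did not overlap, as they did not in 3.23% of all genes tested; the same contrast chose these genes. At an unadjusted p under 0.05 stood 700 higher and 337 lower genes, 6.22% of those tested. The 8 calls rest on a spread shared with all 24 whole lung libraries: edgeR called no gene with the spread taken from the 11 libraries of batch S151 (1027 genes had an unadjusted p under 0.05), from the 8 libraries alone (969 genes) or without batch S061 (965 genes). DESeq2 called 102 genes (0.612%), limma voom with quality weights 1290 (7.74%), and an edgeR fit with arm plus batch 56 (0.336%). Each of these 3 fits called all 8 genes.

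**Figure D1:**
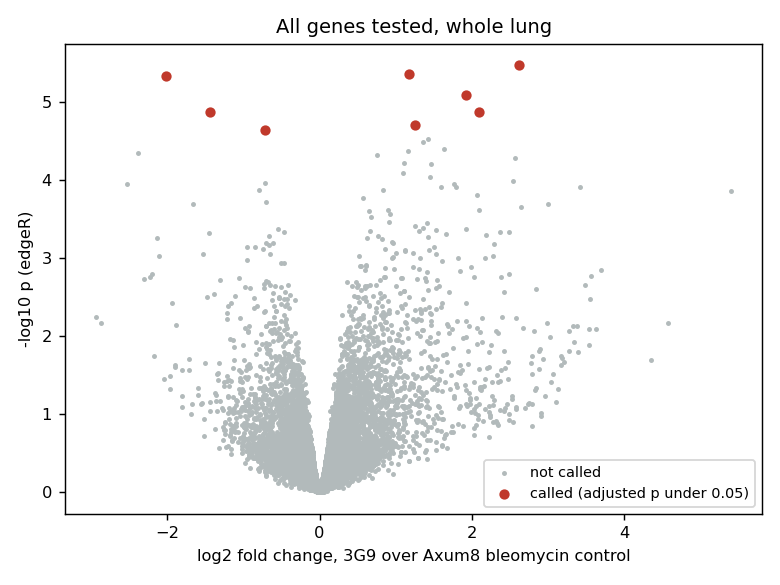
Log2 fold change of 3G9 over Axum8 bleomycin control (x axis) against -log10 of the edgeR p (y axis) for the 16667 genes tested in whole lung. The 5 genes called higher and the 3 called lower are marked, and many uncalled genes extend to large positive fold changes.

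The gene with the smallest p among those that were higher was ENSMUSG00000053318. It stood at 70.6 CPM (counts scaled to the size of the library, with TMM factors) in 3G9 mouse 218, 22.4 in 219, 16.4 in 226R and 9.28 in 228, against 4.40, 3.57, 5.23 and 6.06 CPM in Axum8 mice 204, 206, 208R and 225. Every 3G9 library was above every Axum8 library, and mouse 218 was far above the other 3G9 mice. The means were 29.7 ± 27.8 CPM with 3G9 and 4.82 ± 1.07 CPM with Axum8 (SD, n = 4 each), and the log2 fold change was 2.62 ± 0.42 (SE, edgeR adjusted p = 0.0265). Saline mice had 3.26 ± 0.761 CPM (SD, n = 3), and the Axum8 bleomycin libraries did not differ detectably from them (edgeR adjusted p = 0.514). Without mouse 218 the log2 fold change was 1.73, and the gene was still called (edgeR adjusted p = 0.0251). It was the only one of the 8 called genes whose fold moved by over 1.5 times when any 1 mouse was left out.

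ENSMUSG00000025355 was higher by a smaller and more even step. It stood at 62.8, 90.7, 78.3 and 60.1 CPM in 3G9 mice 218, 219, 226R and 228, against 33.1, 25.9, 28.3 and 42.2 CPM in Axum8 mice 204, 206, 208R and 225. No single mouse carried the difference, and mouse 218 was not the highest. The means were 73.0 ± 14.3 CPM with 3G9 and 32.4 ± 7.18 CPM with Axum8 (SD, n = 4 each), and the log2 fold change was 1.17 ± 0.19 (SE, edgeR adjusted p = 0.0265). Left-out mice moved the log2 fold change only between 1.05 and 1.32. The gene was also higher in Axum8 bleomycin mice than in saline mice, which had 18.15 ± 4.41 CPM (SD, n = 3), by 0.84 ± 0.21 on the log2 scale (SE, edgeR adjusted p = 0.027). That comparison shares the Axum8 bleomycin libraries with the one of 3G9 and called 720 genes (4.25%).

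Of the genes that were lower, ENSMUSG00000029675 had the smallest p. It stood at 148 CPM in 3G9 mouse 218, 178 in 219, 240.0 in 226R and 119.8 in 228, against 643, 356, 731 and 1047 CPM in Axum8 mice 204, 206, 208R and 225. The lowest Axum8 library was above the highest 3G9 library, and the Axum8 mice differed more among themselves than the 3G9 mice did. The means were 172 ± 51.5 CPM with 3G9 and 695 ± 284.5 CPM with Axum8 (SD, n = 4 each), and the log2 fold change was -2.02 ± 0.32 (SE, edgeR adjusted p = 0.0265). Saline mice had 301 ± 127.5 CPM (SD, n = 3). Mouse 230, at 448 CPM, was the highest of them, above the lowest Axum8 bleomycin library, and the difference of bleomycin from saline fell just short of the threshold (log2 fold change 1.22 ± 0.35, SE, edgeR adjusted p = 0.0535). The 3G9 libraries other than 226R lay below every saline library, though 3G9 was not tested against saline. The fold change ranged from -2.24 to -1.75 on the log2 scale with 1 mouse left out.

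ENSMUSG00000020377 had the next smallest p among the genes that were lower. It stood at 4.39, 5.25, 2.52 and 3.45 CPM in 3G9 mice 218, 219, 226R and 228, against 5.67, 11.3, 11.9 and 13.3 CPM in Axum8 mice 204, 206, 208R and 225. Axum8 mouse 204 came close to the highest 3G9 mouse, and the other Axum8 mice were at least 2-fold above it. The log2 fold change was -1.43 ± 0.26 (SE, edgeR adjusted p = 0.0378) and reached -1.64 without mouse 204. Saline mice had 13.4 ± 2.55 CPM (SD, n = 3), and no difference between bleomycin with Axum8 and saline was detected (edgeR adjusted p = 0.518). The plot of these genes by library shows the 3 groups side by side.

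**Figure D2:**
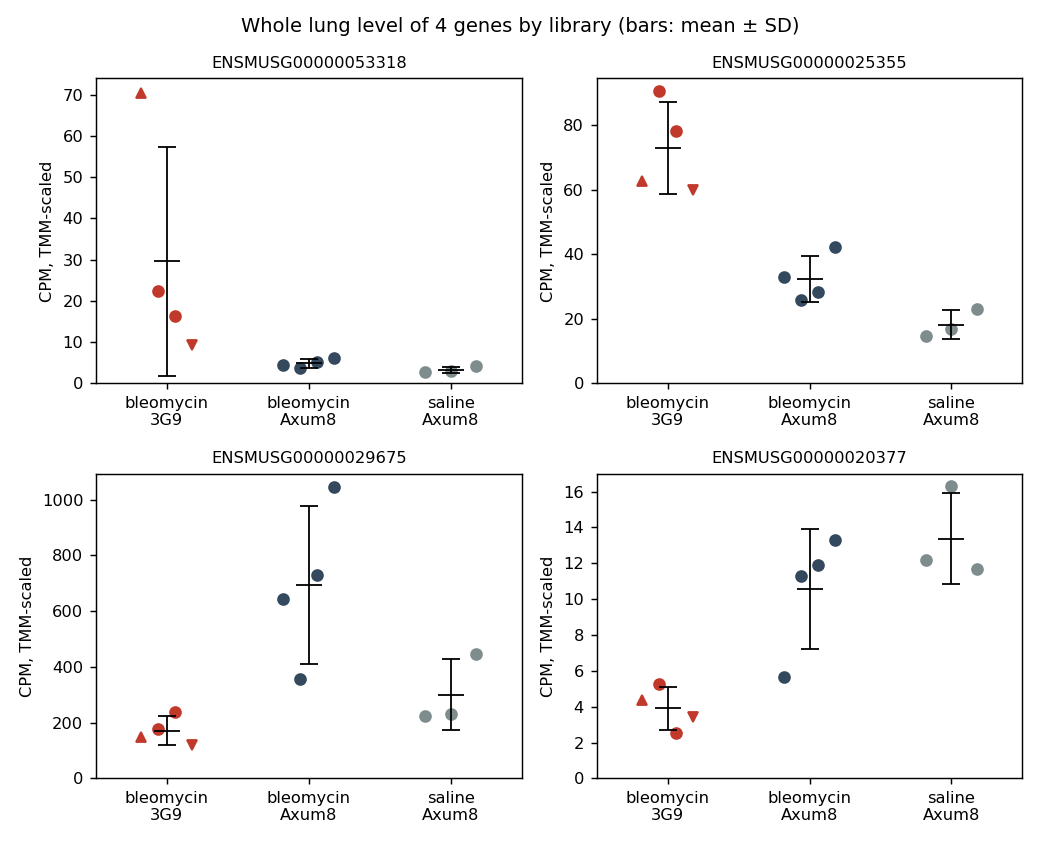
CPM, scaled by TMM (y axis), of 4 genes in whole lung libraries of bleomycin mice with 3G9, bleomycin mice with Axum8 and saline mice with Axum8; each point is a mouse, the upward triangle is mouse 218 and the downward triangle mouse 228, and bars give the mean and SD. In no panel do the 3G9 and Axum8 bleomycin libraries overlap, and in the first panel mouse 218, at 70.6 CPM, is far above the other 3G9 mice. In the panel of ENSMUSG00000020377 the groups come close, with 5.25 CPM in 3G9 mouse 219 and 5.67 CPM in Axum8 mouse 204.

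The other 4 called genes, of which 3 were higher and 1 lower, showed no change in fold of over 1.5 times with any mouse left out. One of the higher genes ranged from 23.4 to 79.4 CPM with 3G9, mouse 218 being the highest, against 7.43 to 16.5 CPM with Axum8. The next ranged from 5.30 to 13.4 CPM with 3G9, where mouse 218 was the lowest, against 1.21 to 3.62 CPM with Axum8. The last of them ranged from 501 to 822 CPM with 3G9, against 184 to 420 CPM with Axum8. The gene that was lower held the single outlying library among the 8 called genes: 3G9 mouse 226R stood at 73.2 CPM, beside 58.3, 59.1 and 58.7 CPM in mice 218, 219 and 228, against 90.0 to 112.7 CPM in Axum8 mice. The outlying value was the one nearest to the Axum8 mice, and without mouse 226R the gene was further from them. Outlying here means a gap to the next library of over 0.829 of the group's range on the log2 scale, the critical value for 4 values. By that measure an outlying library was present in 5.18% of all genes tested among 3G9 libraries and in 6.12% among Axum8 libraries; the critical value is set for a share of 0.05.

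Whether each call survived depended on which mouse was left out, even where the fold change hardly moved. None of the 8 calls was kept in all 8 fits with 1 mouse left out; each was kept in 2 to 4 of them. The unadjusted edgeR p of the 8 genes was at most 0.00016 in every such fit. Calls were lost at the threshold on adjusted p, which reached up to 0.207. The same libraries had chosen these genes. Without 3G9 mouse 219 or without Axum8 mouse 208R edgeR called no gene (880 and 737 had an unadjusted p under 0.05), although neither mouse was often the outlying one. Without Axum8 mouse 204 or 206, 1 gene was called in each fit. Without 3G9 mouse 218, 3 genes were called, all higher and all among the 8, and without 226R there were 5, of which 4 were among the 8. Without Axum8 mouse 225 the count was 12, of which 6 were among the 8. Without 3G9 mouse 228 it was 103, with 92 higher and 11 lower, among them all 8. Mouse 228 was the 3G9 mouse nearest to saline along the first principal component. Along the second, which held 17.2% of the variance, it scored 63.2, and the next highest was saline mouse 230 at 26.2. By the measure above, mouse 228 was the outlying 3G9 library in 2.02% of genes tested and mouse 218 in 2.03%. Axum8 mice 225 and 204 were outlying in 2.37% and 2.23%, and the remaining mice in 0.378% to 1.04%. All 8 genes kept their direction in all 8 fits.

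**Figure D3:**
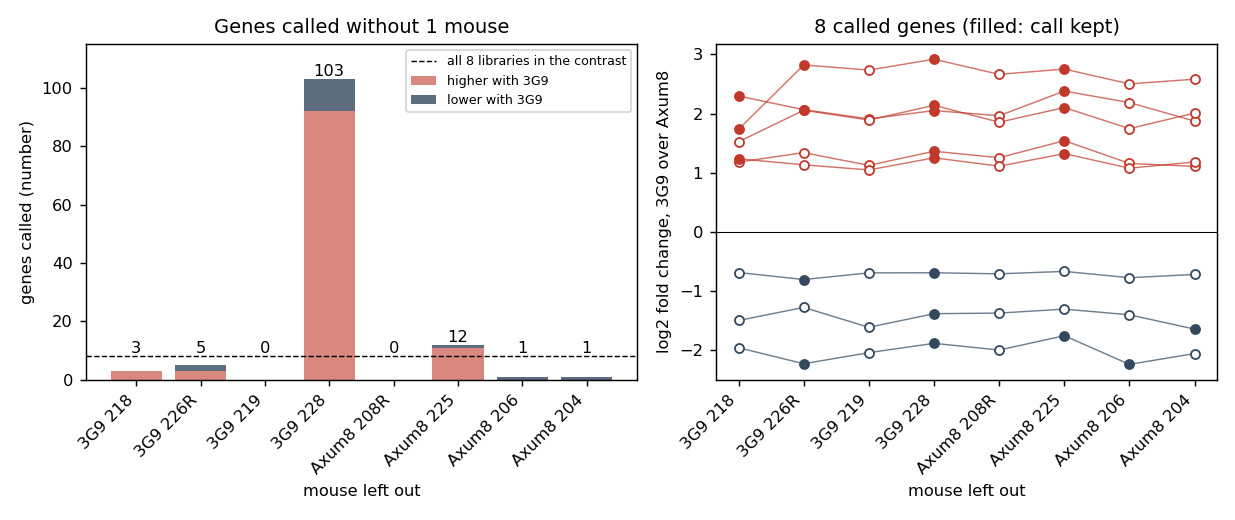
Left, the number of genes called higher and lower with 3G9 (y axis) when the mouse named on the x axis was left out, with the 8 genes called from all libraries as a dashed line; the count ran from 0 without mouse 219 or 208R to 103 without mouse 228. Right, the log2 fold change of each of the 8 genes in the same fits (y axis), with filled points where the call was kept; the lines stay on their side of 0, while many points are open.

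Among genes that were over 2-fold higher with 3G9, called or not, dependence on 1 library was mostly dependence on mouse 218. By the fitted log2 fold change, 456 genes were over 2-fold higher with 3G9 (2.74%) and 145 over 2-fold lower (0.870%). Among 3G9 libraries, mouse 218 was the highest in 373 of the 456, 81.8% of them, while mouse 219 was the highest in 40, mouse 228 in 27 and mouse 226R in 16. Over all 16667 genes tested, mouse 218 was the highest 3G9 library in 36.2%; the 456 were chosen by a mean that includes it, so both shares are descriptions. Leaving out mouse 218 shrank the fold of 211 of the 456 by over 1.5 times, 46.3% of them. No other 3G9 mouse did so for more than 11, the count for mouse 219. Of the genes over 2-fold lower, 15 of the 145 shrank by that much without some Axum8 mouse, and in 9 of them it was mouse 206. With 4 mice a group, leaving out a low library cannot move a mean that far, so this measure finds only high libraries, in 3G9 mice for higher genes and in Axum8 mice for lower genes, and it does not compare the 2 directions.

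For the part of these genes that could be followed in epithelium, mouse 218 mostly ranked highest there too. Of the 211 genes whose fold shrank without it, 88 were tested in epithelium, and mouse 218 was the highest of the 4 epithelial 3G9 libraries in 84 of them, 95.5%. Among the other 245 genes over 2-fold higher in whole lung, it was the highest in 73 of 109, and over all genes tested in epithelium in 29.3%. The epithelial library of mouse 218 also held the most RNA of genes depleted from epithelium among 3G9 mice, at 1.14% of counts beside 0.584% to 0.798% in the others. The part of such RNA in the epithelial values was not tested. Of the 211 genes, 31.3% were depleted at least 2-fold from epithelium in the saline mice of S135, and 0 were enriched at least 2-fold. Over all genes tested in whole lung, 30.1% were depleted and 5.08% enriched. Genes with under 60 counts over the 6 saline libraries of S135 could not be classed but stay in both totals.

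Genes with an unadjusted p under 0.05 held a larger share of epithelium-depleted genes than all genes tested, in both directions. Setting epithelium against whole lung in the 3 saline mice of S135, 30.1% of all genes tested were at least 2-fold lower in epithelium and 5.08% at least 2-fold higher. Among the 700 genes higher with 3G9 at an unadjusted p under 0.05, 48.3% were epithelium-depleted and 1.86% epithelium-enriched. Among the 337 lower genes, 52.5% were depleted and 2.67% enriched. Of the 8 called genes, 4 of the 5 that were higher and 2 of the 3 that were lower were depleted, and none was enriched. These shares are descriptions and carry no test.

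In the epithelial libraries of the same mice edgeR called no gene (377, or 2.52%, had an unadjusted p under 0.05), while DESeq2 called 4 and limma voom 13. Of the genes described above, ENSMUSG00000053318 averaged 3.18 ± 2.69 CPM with 3G9 and 0.393 ± 0.0691 CPM with Axum8 in epithelium (SD, n = 4 each), again with mouse 218 highest, at 7.01 CPM. ENSMUSG00000025355 averaged 5.14 ± 0.611 CPM with 3G9 and 2.71 ± 1.30 CPM with Axum8 (SD, n = 4 each). For both of these genes every epithelial 3G9 library was above every epithelial Axum8 bleomycin library, but neither was called there. Their epithelial log2 fold changes were 3.01 ± 0.82 and 0.92 ± 0.60 (SE, edgeR unadjusted p = 0.00123 and 0.141). How often the groups did not overlap over all genes tested in epithelium was not counted. ENSMUSG00000029675 stood at 9.66 ± 3.52 CPM with 3G9 and 65.3 ± 73.3 CPM with Axum8 (SD, n = 4 each); the groups did not overlap, but the gene was not called there (log2 fold change -2.76 ± 0.59, SE, edgeR adjusted p = 0.507). ENSMUSG00000020377 stood at 1.28 ± 0.662 CPM with 3G9 and 1.68 ± 0.674 CPM with Axum8 (SD, n = 4 each), and the groups overlapped. All 4 genes averaged less CPM in epithelium than in whole lung of either group. Whether the 3G9 difference itself varied between the compartments was not tested.

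The response to bleomycin was examined with genes chosen in other mice. In the whole lung libraries of S135, which hold 2 bleomycin and 3 saline mice given Vehicle, 166 genes were higher (1.06%) and 79 lower (0.506%) after bleomycin in an edgeR fit of that batch alone. For each S151 library, the median difference of these genes from the mean of the 3 saline libraries was taken on the log2 scale, over 165 raised and 79 lowered genes. Each saline library was itself part of that mean, which draws the saline values towards it. Raised genes had medians of 0.927, 0.807, 0.762 and 0.587 in 3G9 mice 218, 219, 226R and 228, against 0.859, 0.597, 0.752 and 1.01 in Axum8 mice 204, 206, 208R and 225. The groups overlapped almost wholly, and all 8 libraries were above the saline mice, of which the highest had 0.139. Lowered genes had medians of -1.0, -0.544, -0.401 and -0.110 in the same 3G9 mice, against -0.357, -0.397, -0.488 and -0.545 in the Axum8 mice. Here the 3G9 mice spread further than the Axum8 mice: mouse 218 lay furthest from saline, and mouse 228 lay just below the saline mice, which ranged from -0.103 to 0.181.

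**Figure D4:**
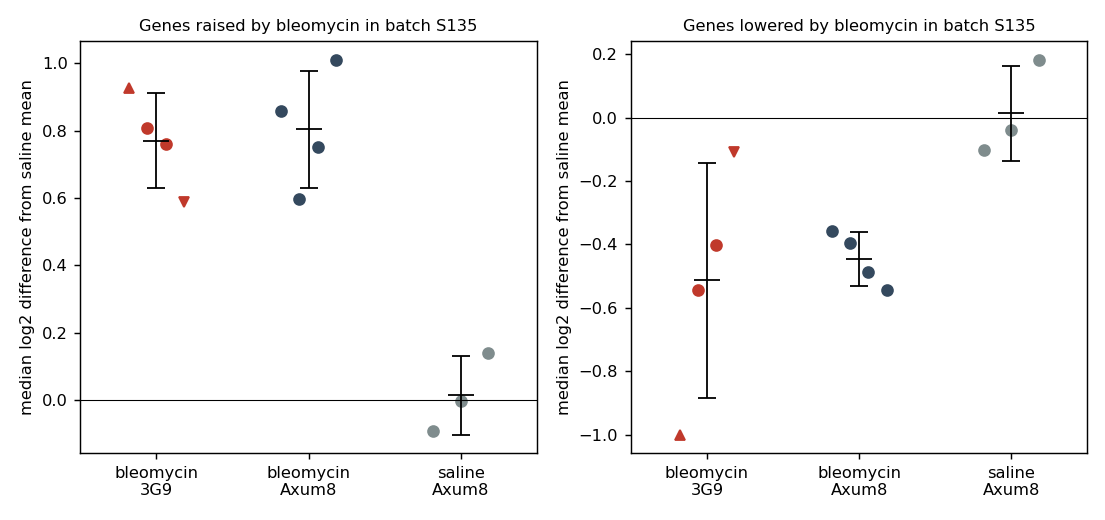
Median log2 difference from the mean of saline libraries (y axis) over 165 genes raised (left) and 79 genes lowered (right) by bleomycin in batch S135, for each whole lung library of batch S151; points are mice, the upward triangle is mouse 218 and the downward triangle mouse 228, and bars give the mean and SD. The 3G9 and Axum8 bleomycin libraries overlap in both panels, and the 3G9 libraries span -1.0 to -0.110 in the right panel.

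Between 3G9 and Axum8, the 165 raised genes had a median log2 fold change of 0.07 with 61.2% positive, and the 79 lowered genes a median of 0.000194 with 50.6% positive, beside 0.00239 and 50.5% over all genes tested. Of the raised genes 17.6% reached an unadjusted p under 0.05, 15 higher and 14 lower with 3G9, compared with 6.22% of all genes. For lowered genes that share was 6.33%. The S135 libraries that chose both sets also add to the spread used in the test of 3G9. The shares under that p are therefore not independent of how the genes were chosen. Among the 165 were 1 gene called higher and 1 called lower with 3G9. The counts in the 2 directions were thus close among bleomycin-raised genes, whereas over all genes tested 700 were higher and 337 lower at that p.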

How the data were processed

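The authors deposited 1 table of read counts per Ensembl gene, whole numbers with no normalization; the tools named per the submitters' processing notes include STAR 2.5.2b, with genome build GRCm38, and neither counting program nor strand setting is given in the sources used here. Columns were matched to samples through mouse number and compartment letter (E read as epithelium, I as whole lung).

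Counts were fitted across all genes in R 4.3.3 with edgeR 4.0.16 (TMM, filterByExpr on the 8 libraries, robust quasi-likelihood test, Benjamini-Hochberg adjustment, threshold 0.05), with 1 coefficient for each arm within batch over all 24 whole lung libraries (11484883 to 51797377 counts). The fold change then uses batch S151 only; an additive arm plus batch fit lets Vehicle mice of other batches weigh on it. SE is the log2 fold change over the root of F. limma 3.58.1 and DESeq2 1.42.0 were alternatives. The script was tested on simulated data. CPM are scaled over genes tested; log2 values against saline use a pseudocount of 0.5, gap ratios 0.1, and compartment genes at least 60 counts over 6 saline libraries.

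The comparison, lists and rules were chosen with earlier results of these data known. Named genes were all those called, restricted to 2 IDs per direction by smallest p since no symbols could be assigned; lists by symbol were not used here. Mice are separate animals; preparation steps they shared are not given.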

Additional observations from a re-analysis of the deposited data

Results flagged for a closer look

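In epithelial libraries, the level of ENSMUSG00000029675 in Axum8 bleomycin mouse 208R, 174 CPM, lay far above the other Axum8 mice, at 42.6, 25.4 and 19.0 CPM, against 4.70 to 12.6 CPM in 3G9 mice. It was marked because the gap to the next mouse, on untransformed CPM, was 0.848 of the group's range, above the critical value of 0.829, which chance alone exceeds in a share of about 0.05 of groups. On the log2 scale, used for the outlying libraries of the report, the gap was 0.637 of the range and did not pass. In whole lung the same mouse had 731 CPM, within the range of the Axum8 mice. The epithelial library of mouse 208R also held the highest share of genes depleted from epithelium among the epithelial libraries of the batch, 1.16%; the part of that RNA in the value was not tested.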

How the results depend on the processing

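The whole lung count of 8 genes for 3G9 moved to 102 in DESeq2 (73 higher, 29 lower), 1290 in limma voom (837 and 453), 56 with arm plus batch (50 and 6) and 2 with no filter (27131 genes tested), and to 0 with only the S151 libraries, only the 2 groups, or without batch S061 (chosen after seeing the data). It stayed within 1.5 times with RLE scaling (7), sex as a term (11) and only male mice in the 2 groups compared (12). In the last of these, 6 of the 8 genes were still called, and females of other groups stayed in the fit. The count ran from 0 to 103 with 1 mouse left out. Over 10 genes and 18 alternatives, all 180 log2 fold changes kept their direction, while 74 lost their call and 6 gained one. The 10 genes were the 8 called and the 2 lower genes next by p, which the main fit had not called (edgeR adjusted p = 0.0578 and 0.0789). Only the 8 could lose a call, and only the other 2 could gain one. Bleomycin against saline, 720 genes (542 higher, 178 lower), moved to 1498 in DESeq2 (855 and 643), 5599 in limma voom (2871 and 2728) and 2057 with arm plus batch (1197 and 860), was 767 with RLE scaling (499 and 268), and ran from 146 to 1171 with 1 mouse left out, lowest without saline mouse 221 and highest without saline mouse 230. The epithelial count of 0 became 4 in DESeq2 and 13 in limma voom and was 0 in edgeR with any mouse left out. The causes were not tested. No paired analysis was possible because the groups compared share no mouse.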
